A study of Saccharomyces cerevisiae with 8 samples.

Results

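The genes described here are 10 budding yeast genes listed under peroxide defence, out of 5545 genes in the deposited count table. They encode peroxiredoxins, sulfiredoxin, the cytosolic thioredoxins and their reductase, a catalase, a superoxide dismutase, and a protein with glyoxalase III and chaperone activity. They were taken by systematic name from a list made with earlier results of these libraries known, and the values that decided the list are not recorded. Their changes with spermidine, in footprints, in RNA and in the ratio between the assays, are therefore given as a description, without p-values of single genes. It is only marked or counted which changes passed a threshold on p. P-values are given for the ratio at each concentration, and these are description too. All 10 were in the table and all 10 passed the filter on low counts.

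Peroxiredoxins reduce hydrogen peroxide and organic peroxides with a reactive cysteine, which thioredoxin then reduces back, and thioredoxin in turn is reduced by thioredoxin reductase at the expense of NADPH. A peroxiredoxin cysteine that is oxidised too far is rescued by sulfiredoxin. Catalase splits peroxide without a reductant, and superoxide dismutase makes peroxide from superoxide. In yeast the transcription factors Yap1 and Skn7 drive many of these genes after peroxide, and Msn2 and Msn4 drive general stress genes such as the cytosolic catalase gene.

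The libraries came from 1 Saccharomyces cerevisiae genotype of mating type a, carrying ura3-52 and leu2, with SPE1 and SPE2 each replaced by LEU2. All 4 groups share these deletions, so every culture lacked ornithine decarboxylase and S-adenosylmethionine decarboxylase. Some cultures were given 10 µM spermidine and the others none. The groups were ribosome footprints at 10 µM added spermidine, footprints at 0 µM, total RNA at 10 µM and total RNA at 0 µM, with 2 libraries each, from cultures in synthetic dextrose medium at 30 °C harvested at an optical density of 0.6 to 0.7. A footprint is a stretch of mRNA, here 17 to 34 nucleotides, that a ribosome shielded from nuclease. The question put by the study was how translation is regulated when polyamines are scarce or plentiful. A strain that makes its own polyamines was not analysed here, so the comparison is between supplied and unsupplied cells of a single deletion strain.

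Library totals ran from 3324344 to 7089928 counts in footprints and from 1786419 to 2884632 in RNA, and the 10 µM libraries were the shallower ones in both assays. SPE1 had 4 to 15 counts and SPE2 3 to 62 counts per library, at 1.25 to 7.18 and 1.57 to 9.78 CPM (counts scaled to the composition-adjusted size of each library). The 5 genes that mark mating type a cells (STE2, MFA1, MFA2, STE6, BAR1) stood between 72.5 and 571 CPM in every library, and the 3 alpha-cell genes in the table (STE3, MF(ALPHA)1, SAG1) between 0.604 and 38 CPM. Counts of the 2 replicates in each group were further apart than counting noise alone gives, with a chi-square per degree of freedom of 5.61 to 10.3. Whether replicates were grown as separate cultures is not in the labels, and the p-values therefore cover only the spread among these libraries, which may be technical.

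In footprints, 5 of the 10 genes rose at 10 µM and 4 fell ("called" from here on: an adjusted p below 0.05 in edgeR's quasi-likelihood test, by Benjamini and Hochberg's method over 5488 tested genes). Over all tested genes 38.5% were called, 18.7% higher and 19.8% lower. For the 10 genes, listed with earlier results known, a call only describes a change beside its spread and is not a test. TSA2 rose most, by 2.47 on the log2 scale, and the cytosolic thioredoxin and thioredoxin reductase genes TRX1, TRX2 and TRR1 and the peroxiredoxin gene AHP1 rose by 0.41 to 0.85. HSP31, CTT1, SRX1 and SOD1 fell, by 1.91, 1.27, 0.92 and 0.44. In RNA, 2 rose (TSA2 and TRX1) and 4 fell (SRX1, HSP31, CTT1 and SOD1), where 21.9% of all genes were called, 8.45% higher and 13.5% lower. Over all tested genes the median log2 change was -0.02 in footprints and 0.002 in RNA, and for the 10 genes 0.32 and -0.17. In bulk cultures a change in how many cells express a gene and a change in the amount per cell cannot be told apart.

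**Figure D1:**
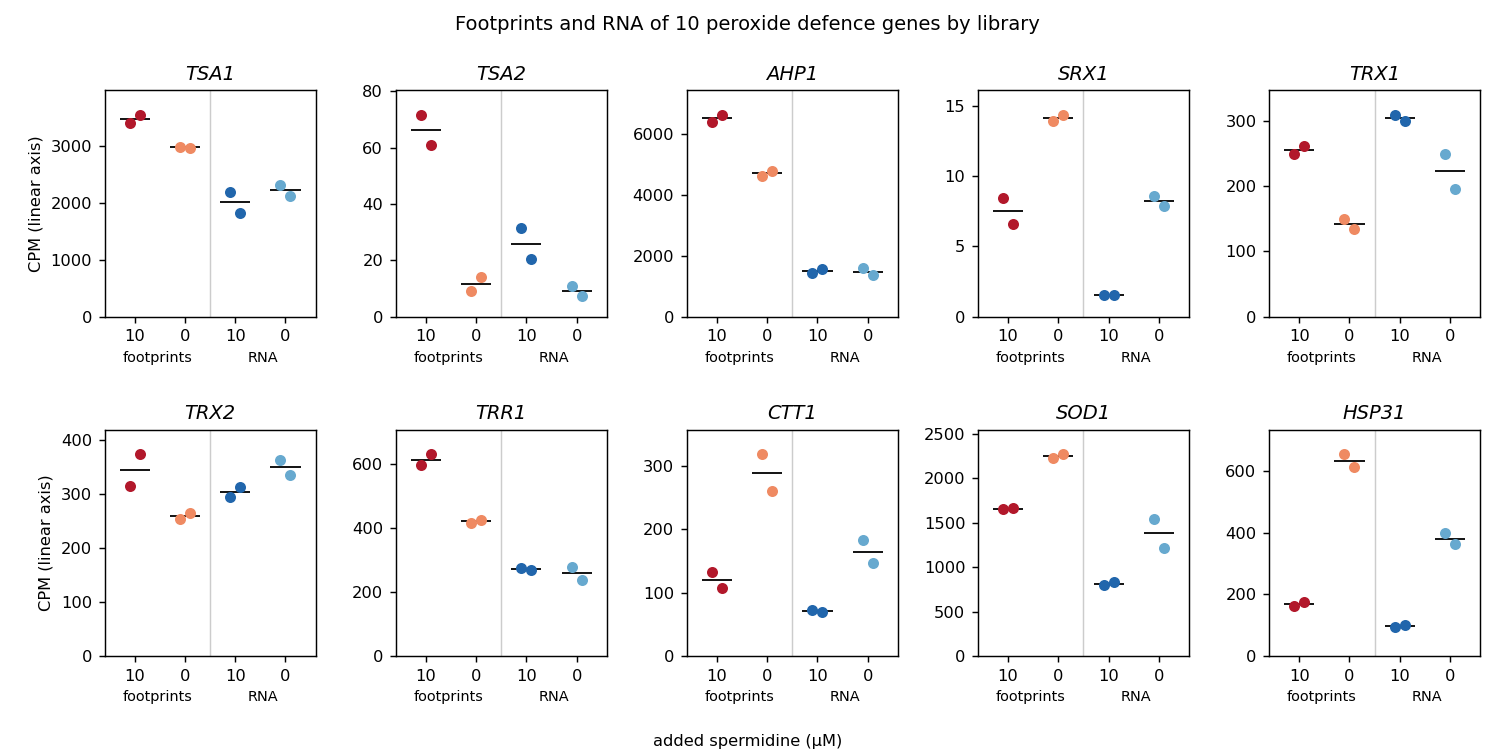
Footprint (red, orange) and RNA (dark and light blue) levels of the 10 genes in CPM on linear axes from 0, at 10 and 0 µM added spermidine; each point is a library and each bar the mean of 2. The 10 µM footprint points lie above the 0 µM points in 6 genes and below them in 4, while the RNA points of TSA1, AHP1 and TRR1 overlap between concentrations.

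The libraries of the 2 concentrations did not overlap in footprints for any of the 10 genes, with 6 higher and 4 lower at 10 µM, but such separation held for 72.6% of all tested genes (35.3% higher and 37.4% lower). In RNA it held for 7 of the 10, with 2 higher and 5 lower, against 60.1% of all genes (28.6% higher and 31.6% lower). The 10 genes together took 1.25% and 1.29% of footprint counts at 10 µM, against 1.15% and 1.16% at 0 µM. They took 0.587% and 0.537% of RNA counts at 10 µM, against 0.704% and 0.607% at 0 µM. AHP1 set the direction in footprints: without it the other 9 genes took 0.633% and 0.653% at 10 µM, against 0.692% and 0.691% at 0 µM. In RNA they took 0.435% and 0.378% at 10 µM, against 0.542% and 0.47% at 0 µM, lower like the sum of all 10. Leaving AHP1 out was chosen after its values were seen.

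TSA1 encodes the main cytosolic peroxiredoxin, which also acts as a chaperone (YML028W; chromosome XIII, 220138 to 220728, R64). Its footprints stood at 3404 and 3548 CPM at 10 µM, against 2983 and 2972 CPM at 0 µM. Its RNA stood at 2185 and 1829 CPM at 10 µM, against 2317 and 2118 CPM at 0 µM. The footprint libraries were separate and the RNA libraries overlapped. The log2 change was 0.22 (SE 0.105) in footprints and -0.14 (SE 0.105) in RNA. TSA1 was the only one of the 10 called in neither assay, though footprints fitted without the RNA libraries did call it higher.

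TSA2 encodes the second cytosolic peroxiredoxin of the same kind, a close paralog of TSA1 (YDR453C; chromosome IV, 1365072 to 1365662). It had 71.7 and 61.2 CPM of footprints at 10 µM (229 and 250 counts), against 9.27 and 14.1 CPM at 0 µM (46 and 99 counts). Its RNA was 31.3 and 20.5 CPM at 10 µM (60 and 40 counts), against 10.9 and 7.52 CPM at 0 µM (28 and 22 counts). Both 10 µM libraries were high in each assay, with no overlap. Footprints were 5.56-fold higher (log2 change 2.47, SE 0.23) and RNA 2.82-fold higher (SE 0.32 on the log2 scale), each above 99% of tested genes' changes. The RNA call was lost without RNA replicate 1 at 10 µM or RNA replicate 2 at 0 µM; over all 8 omissions of 1 library the log2 change ran from 1.16 to 1.78.

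How reads that match both TSA genes were counted is not given in the sources used here, so the split between the paralogs is uncertain. TSA2 held 2.06% and 1.69% of the pair's footprints at 10 µM, against 0.31% and 0.472% at 0 µM. Of the pair's RNA it held 1.41% and 1.11% at 10 µM, against 0.47% and 0.354% at 0 µM. The share of TSA2 was thus higher in every 10 µM library than in every 0 µM library of the same assay. With the counts of TSA1 and TSA2 added before the fit, a setting chosen after seeing the data, the pair's log2 change was 0.25 in footprints (SE 0.105) and -0.13 in RNA, close to that of TSA1 alone, and was called in neither assay.

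AHP1 encodes a peroxiredoxin that prefers alkyl hydroperoxides (YLR109W; chromosome XII, 368781 to 369311). It had 6392 and 6625 CPM of footprints at 10 µM, against 4630 and 4781 CPM at 0 µM. Its RNA was 1418 and 1570 CPM at 10 µM, against 1596 and 1353 CPM at 0 µM. Footprints were high in both 10 µM libraries while the RNA libraries of the 2 concentrations overlapped. The log2 change was 0.47 (SE 0.10) in footprints, called, and 0.02 (SE 0.105) in RNA, not called.

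SRX1 encodes sulfiredoxin, the ATP-dependent enzyme that repairs over-oxidised peroxiredoxins (YKL086W; chromosome XI, 278281 to 278664). It had the lowest level of the 10 genes at 10 µM. Its footprints were 8.46 and 6.61 CPM at 10 µM (27 counts in each library), against 13.9 and 14.4 CPM at 0 µM (69 and 101 counts). Its RNA was 1.57 and 1.54 CPM at 10 µM, from 3 counts in each library, against 8.61 and 7.86 CPM at 0 µM, from 22 and 23 counts. Both assays were lower in every 10 µM library. From the summed counts, RNA at 10 µM was 0.19 times that at 0 µM (exact 95% Poisson interval 0.066 to 0.44), and footprints were 0.52 times (0.38 to 0.71); the intervals cover counting error only. The fitted log2 change was -0.92 (SE 0.21) in footprints and -2.38 (SE 0.40) in RNA, the second of which depends on the prior count. DESeq2 did not call SRX1 in footprints, nor did edgeR when replicate 2 of the 10 µM footprints was left out.

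TRX1 and TRX2 encode the 2 cytosolic thioredoxins, which hand electrons to peroxiredoxins and other enzymes. TRX1 (YLR043C; chromosome XII, 231702 to 232013) had 249 and 262 CPM of footprints at 10 µM, against 150 and 134 CPM at 0 µM. Its RNA was 310 and 300 CPM at 10 µM, against 250 and 196 CPM at 0 µM. Every 10 µM library was higher than every 0 µM library in both assays. The log2 change was 0.85 (SE 0.13) in footprints and 0.45 (SE 0.13) in RNA. The RNA call was lost in 5 of the 8 omissions of a single library (both footprint libraries and both RNA libraries at 10 µM, and RNA replicate 2 at 0 µM) and with RNA fitted alone.

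TRX2 (YGR209C; chromosome VII, 912913 to 913227) had 315 and 374 CPM of footprints at 10 µM, against 254 and 264 CPM at 0 µM. Its RNA was 294 and 312 CPM at 10 µM, against 363 and 335 CPM at 0 µM. The 2 assays thus separated in opposite directions, footprints higher and RNA lower in each 10 µM library. The log2 change was 0.41 (SE 0.11) in footprints, called, and -0.21 (SE 0.11) in RNA, not called. Leaving out replicate 2 of the 10 µM footprints, or either 0 µM footprint library, ended the footprint call, and the single-library omissions gave log2 changes of 0.28 to 0.53. TRX2 took 55.8% and 58.8% of the pair's footprints at 10 µM, against 62.9% and 66.3% at 0 µM. Its share of the pair's RNA was 48.7% and 51% at 10 µM, against 59.2% and 63.1% at 0 µM. With the counts of TRX1 and TRX2 added likewise, the pair's log2 change was 0.58 in footprints (SE 0.11), called, and 0.08 in RNA (SE 0.11), not called, so the RNA call of TRX1 did not extend to the pair.

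TRR1 encodes cytosolic thioredoxin reductase (YDR353W; chromosome IV, 1183299 to 1184258). It had 595 and 631 CPM of footprints at 10 µM, against 417 and 425 CPM at 0 µM. Its RNA was 274 and 269 CPM at 10 µM, within the 278 and 239 CPM at 0 µM. As for AHP1, the footprint libraries were separate and the RNA libraries overlapped. The log2 change was 0.54 (SE 0.10) in footprints, called, and 0.07 (SE 0.11) in RNA, not called.

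CTT1 encodes cytosolic catalase T (YGR088W; chromosome VII, 654634 to 656322). It had 133 and 108 CPM of footprints at 10 µM, against 318 and 259 CPM at 0 µM. Its RNA was 73.1 and 69.3 CPM at 10 µM, against 183 and 146 CPM at 0 µM. All 10 µM libraries were low in both assays. Footprints were 2.41-fold and RNA 2.31-fold lower (log2 change -1.27, SE 0.15, and -1.21, SE 0.17), and both calls held in every alternative run.

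SOD1 encodes the cytosolic copper and zinc superoxide dismutase (YJR104C; chromosome X, 622550 to 623014). It had 1650 and 1664 CPM of footprints at 10 µM, against 2221 and 2271 CPM at 0 µM. Its RNA was 793 and 830 CPM at 10 µM, against 1544 and 1218 CPM at 0 µM. The gap was wider in RNA (log2 change -0.77, SE 0.12) than in footprints (-0.44, SE 0.11), a difference that was not called. The footprint call was lost when any 1 of the 4 footprint libraries was left out, with values from -0.46 to -0.40.

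HSP31 encodes a protein of the DJ-1 family with glyoxalase III and chaperone activity (YDR533C; chromosome IV, 1501447 to 1502160). It had 162 and 175 CPM of footprints at 10 µM, against 656 and 614 CPM at 0 µM. Its RNA was 94.0 and 100 CPM at 10 µM, against 398 and 362 CPM at 0 µM. It fell by nearly the same factor in both assays, 3.77-fold in footprints and 3.92-fold in RNA (log2 change -1.91, SE 0.11, and -1.97, SE 0.11). Fewer than 1% of tested genes had a lower change in either assay. Its close relative HSP33 had 1 to 9 counts per library and did not pass the filter, and HSP32 and SNO4 had no row in the count table. How reads that match several genes were counted is not given, so low counts and missing rows do not show absent expression.

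**Figure D2:**
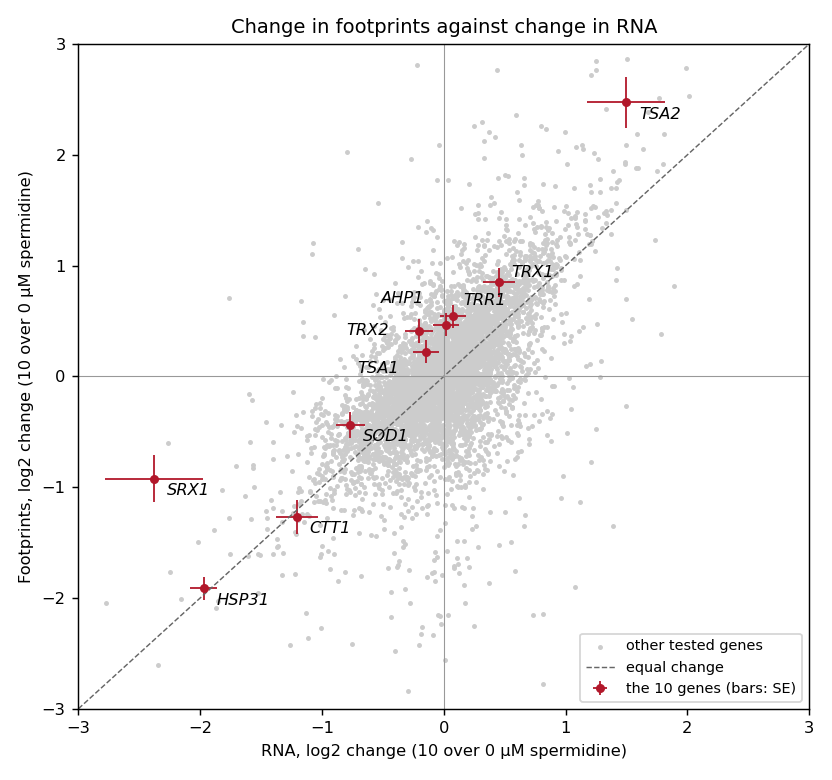
Fitted log2 change in footprints (vertical) against that in RNA (horizontal), 10 over 0 µM, for the 10 genes (red, bars are SE) and 5478 other tested genes (grey, 12 of them beyond the axes at 3). CTT1 and HSP31 lie close to the dashed line of equal change (differences of -0.06 and 0.06), and the other 8 lie above it. SRX1 and TSA2, both with few RNA counts, lie farthest from it. Of all tested genes 55.4% lie above the line, and edgeR called the difference for none of the 10.

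The members also changed places by level. Per kilobase of coding length, footprints at 10 µM ran from AHP1 (12260 CPM per kilobase), TSA1 (5881) and SOD1 (3564) through TRX2, TRX1, TRR1, HSP31 and TSA2 to CTT1 (71.1) and SRX1 (19.6). No neighbours in that order overlapped between libraries. At 0 µM the order was AHP1 (8862), TSA1 (5038), SOD1 (4830), HSP31, TRX2, TRX1, TRR1, CTT1, SRX1 and TSA2 (19.8), with TRX1 and TRR1 overlapping. HSP31 thus stood 7th at 10 µM and 4th at 0 µM, and TSA2 8th and 10th. In RNA at 10 µM the order per kilobase was TSA1 (3396), AHP1 (2814), SOD1 (1746), TRX1, TRX2, TRR1, HSP31, TSA2, CTT1 (42.1) and SRX1 (4.04), where TRX1 and TRX2, and TSA2 and CTT1, overlapped. In RNA at 0 µM it was TSA1 (3753), SOD1 (2970), AHP1 (2777), TRX2, TRX1, HSP31, TRR1, CTT1, SRX1 (21.4) and TSA2 (15.6), where SOD1 and AHP1 overlapped. AHP1, TSA1 and SOD1 lay above 99% of tested genes per kilobase in all 4 groups.

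Footprints per RNA at a given concentration compare the assays for each gene relative to the typical gene. These ratios may also have played a part in the choice of the genes. Their counts and p-values, at both concentrations, are therefore given as a description and not as a test of the 10 genes. At 10 µM, 8 of the 10 genes had a ratio above that of the typical gene and none below, where 65.6% of all genes were called, 34.2% higher and 31.4% lower (edgeR quasi-likelihood test). AHP1 had the clearest excess, a log2 ratio of 2.12 (SE 0.11, edgeR adjusted p = 2.2e-07), above 99.6% of tested genes. SRX1 had a log2 ratio of 2.24 (SE 0.40, edgeR adjusted p = 0.00076), which rests on 6 RNA counts. TSA2 (1.35), TRR1 (1.17), SOD1 (1.03), HSP31 (0.80), TSA1 (0.79) and CTT1 (0.75) followed, with edgeR adjusted p between 1e-05 and 0.0032. The thioredoxin genes were not called, at -0.25 for TRX1 (SE 0.13, edgeR adjusted p = 0.11) and 0.19 for TRX2 (SE 0.11, edgeR adjusted p = 0.17).

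At 0 µM, 7 of the 10 genes were above the typical gene and 2 below, where 64.4% of all genes were called, 31.7% higher and 32.7% lower. AHP1 had the largest log2 ratio of the 10, 1.67 (SE 0.11, edgeR adjusted p = 1.2e-06). CTT1 (0.81), SRX1 (0.78), HSP31 (0.74), TRR1 (0.70), SOD1 (0.70) and TSA1 (0.43) were above it too, with edgeR adjusted p between 0.00017 and 0.01. TRX1 at -0.65 (SE 0.13, edgeR adjusted p = 0.0016) and TRX2 at -0.43 (SE 0.11, edgeR adjusted p = 0.0074) were below it, and TSA2 at 0.38 (SE 0.31, edgeR adjusted p = 0.31) was not called. The SRX1 call was lost with DESeq2 and without replicate 2 of either assay at 0 µM, and that of TRX2 without footprint replicate 1 at 0 µM.

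**Figure D3:**
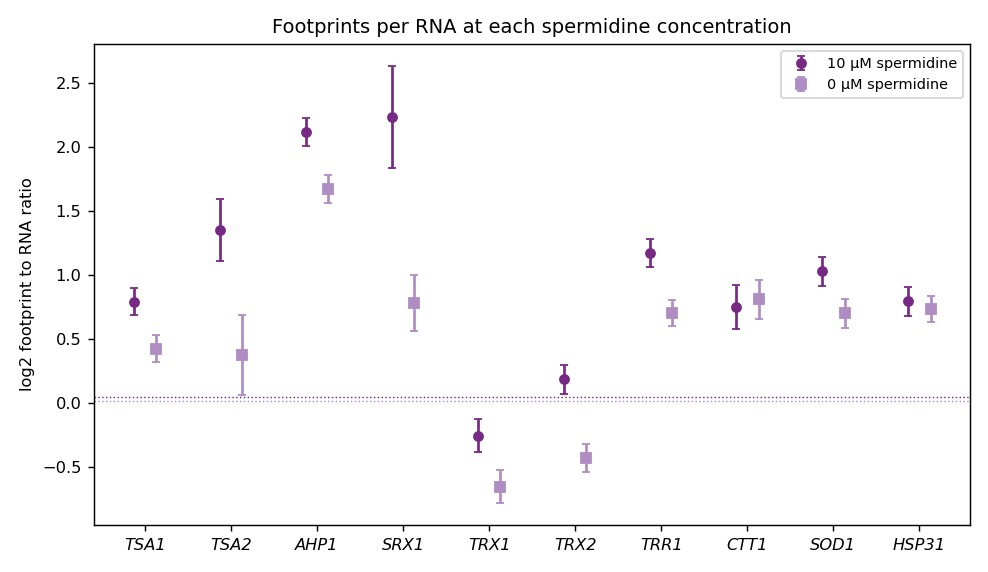
Log2 ratio of footprints to RNA for the 10 genes at 10 µM (dark circles) and 0 µM (light squares) added spermidine, with SE bars from the fit over 8 libraries; dotted lines are the medians of all tested genes (0.05 at 10 µM and 0.02 at 0 µM). AHP1 stands near the top at both concentrations, TRX1 is lowest at both, and CTT1 and HSP31 are nearly level between them.

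The difference of those ratios, the change in translational efficiency, was not called for any of the 10 genes by edgeR, DESeq2 or limma voom, where edgeR called 1.79% of all genes (49 higher and 49 lower, or 37 higher and 83 lower when scaled by library totals). At an unadjusted p below 0.05 the edgeR count was 6 of the 10, where 18.5% of all tested genes passed. Nothing is read from that count, since the efficiency values may have played a part in the choice of the genes. The ratio of mean footprint to mean RNA CPM was 4.36 at 10 µM and 3.19 at 0 µM for AHP1, 1.14 and 0.743 for TRX2, and 2.26 and 1.63 for TRR1. For SRX1 it was 4.85 and 1.72, and for TSA2 2.56 and 1.26, both from few RNA counts. CTT1, at 1.69 at 10 µM and 1.76 at 0 µM, and HSP31, at 1.74 and 1.67, differed least.

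The log2 difference in efficiency was positive in 9 of the 10 genes, against 55.4% of all tested genes. When scaled by library totals it was positive in 8 of 10, where HSP31 turned to -0.03 and the median of all tested genes was -0.03. Nothing is read from these counts either, for the same reason. In the main fit the difference was 1.46 (SE 0.48) for SRX1, 0.98 (SE 0.41) for TSA2, 0.61 (SE 0.16) for TRX2, 0.47 (SE 0.15) for TRR1 and 0.45 (SE 0.15) for AHP1. TRX1 (0.40), TSA1 (0.37) and SOD1 (0.33) were next, HSP31 stood at 0.06 (SE 0.15) and CTT1 at -0.06 (SE 0.23). The median of the 10 was 0.42 and that of all tested genes 0.05. AHP1 was called when RNA replicate 2 at 0 µM was left out. These values share their libraries with the footprint and RNA changes above.

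A list of 43 other genes of peroxide and thiol defence, none of them members, had 41 in the table and 40 tested. Like the members, these genes were listed with earlier results of these data known. Their counts, medians and adjusted p-values, here and in the paragraphs below, are therefore a description and not a test. The same holds for the comparison with all genes. In footprints 17 rose and 4 fell, 52.5% called beside 38.5% of all genes, with a median log2 change of 0.40 beside -0.02. In RNA 5 rose and 6 fell, 27.5% beside 21.9%, with a median of 0.12 beside 0.002. Efficiency was called for none of the 40 by edgeR, DESeq2 or limma voom, beside 1.79% of all genes in edgeR. At an unadjusted p below 0.05 edgeR gave 8 of the 40, 20% beside 18.5% of all genes. The median efficiency change was 0.20 beside 0.05. The list's footprint rises were 11 without footprint replicate 1 at either concentration, and its falls 1 to 2 without any 1 of the 4 footprint libraries or with DESeq2.

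The other peroxiredoxins both rose in footprints. DOT5, the nuclear peroxiredoxin gene, rose by 1.21 on the log2 scale in footprints (SE 0.11, edgeR adjusted p = 6.4e-05) and by 0.89 in RNA (SE 0.14, edgeR adjusted p = 0.0021). PRX1, the mitochondrial peroxiredoxin gene, rose by 0.43 in footprints (edgeR adjusted p = 0.028) and its RNA differed by 0.07 (edgeR adjusted p = 0.76). Its footprint call was lost without either 10 µM footprint library or without footprint replicate 2 at 0 µM. The mitochondrial thioredoxin TRX3 (0.93, SE 0.18, edgeR adjusted p = 0.0035) and its reductase TRR2 (0.77, SE 0.18, edgeR adjusted p = 0.0091) rose in footprints. In RNA they stood at 0.45 and -0.06 (edgeR adjusted p = 0.16 and 0.87), and the TRR2 footprint call ended when replicate 2 of the 10 µM or replicate 1 of the 0 µM footprints was left out.

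Among the glutathione peroxidase-like genes, GPX2 fell by 1.04 in footprints (SE 0.11, edgeR adjusted p = 0.00012) and was 2.29-fold lower in RNA (SE 0.12 on the log2 scale, edgeR adjusted p = 0.00035). HYR1, whose product senses peroxide for Yap1, rose by 0.72 in footprints (SE 0.10, edgeR adjusted p = 0.00071) and 0.52 in RNA (SE 0.12, edgeR adjusted p = 0.012), the RNA call being lost without RNA replicate 2 at either concentration. Of the 5 glutathione genes, 3 rose and 1 fell in footprints, beside 18.7% and 19.8% of all genes. GTT2, a glutathione transferase, rose by 1.06 (SE 0.37, edgeR adjusted p = 0.046) and was called in only 1 of the 8 single-library omissions, over which it ran from 0.73 to 1.68. Its call was also lost with library totals, with DESeq2 and with footprints fitted alone. GSH1, which starts glutathione synthesis, fell by 0.35 in footprints (SE 0.12, edgeR adjusted p = 0.044), called in 1 of 8 omissions with values from -0.50 to -0.20. That footprint call was also lost with DESeq2 and with footprints fitted alone. In RNA GSH1 fell by 0.58 (SE 0.13, edgeR adjusted p = 0.012), a call lost without RNA replicate 1 at 10 µM.

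Of the 8 glutaredoxin genes 4 were higher and 1 lower in footprints, beside 18.7% and 19.8% of all genes. In RNA 1 was higher and 1 lower, beside 8.45% and 13.5% of all genes. GRX4, which works in iron signalling, was the lower one in footprints (-0.48, SE 0.15, edgeR adjusted p = 0.034). Its call was lost without any 1 of the 4 footprint libraries, with DESeq2 and with footprints fitted alone. GRX7 of the secretory pathway rose in RNA (0.48, SE 0.14, edgeR adjusted p = 0.036). The RNA call of GRX7 was lost in all 8 omissions, with DESeq2, with limma voom and with RNA fitted alone. SOD2, the mitochondrial superoxide dismutase gene, fell by 0.83 in RNA (SE 0.16, edgeR adjusted p = 0.0058) as SOD1 did, and differed by -0.33 in footprints (edgeR adjusted p = 0.12). The footprint difference of SOD2 was called with a replicate block (-0.33, edgeR adjusted p = 0.034) and with footprints fitted alone (-0.31, edgeR adjusted p = 0.033). MXR2, a methionine sulfoxide reductase gene, rose in both assays (0.76 in footprints, edgeR adjusted p = 0.0037; 0.88 in RNA, edgeR adjusted p = 0.0055). Of the NADPH-supplying genes ZWF1, GND1 and GND2, ZWF1 and GND1 rose in footprints (0.64 and 0.61, edgeR adjusted p = 0.0013 and 0.00064) and GND1 in RNA (0.32, edgeR adjusted p = 0.028). The RNA call of GND1 was lost in 7 of the 8 single-library omissions and with RNA fitted alone.

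**Figure D4:**
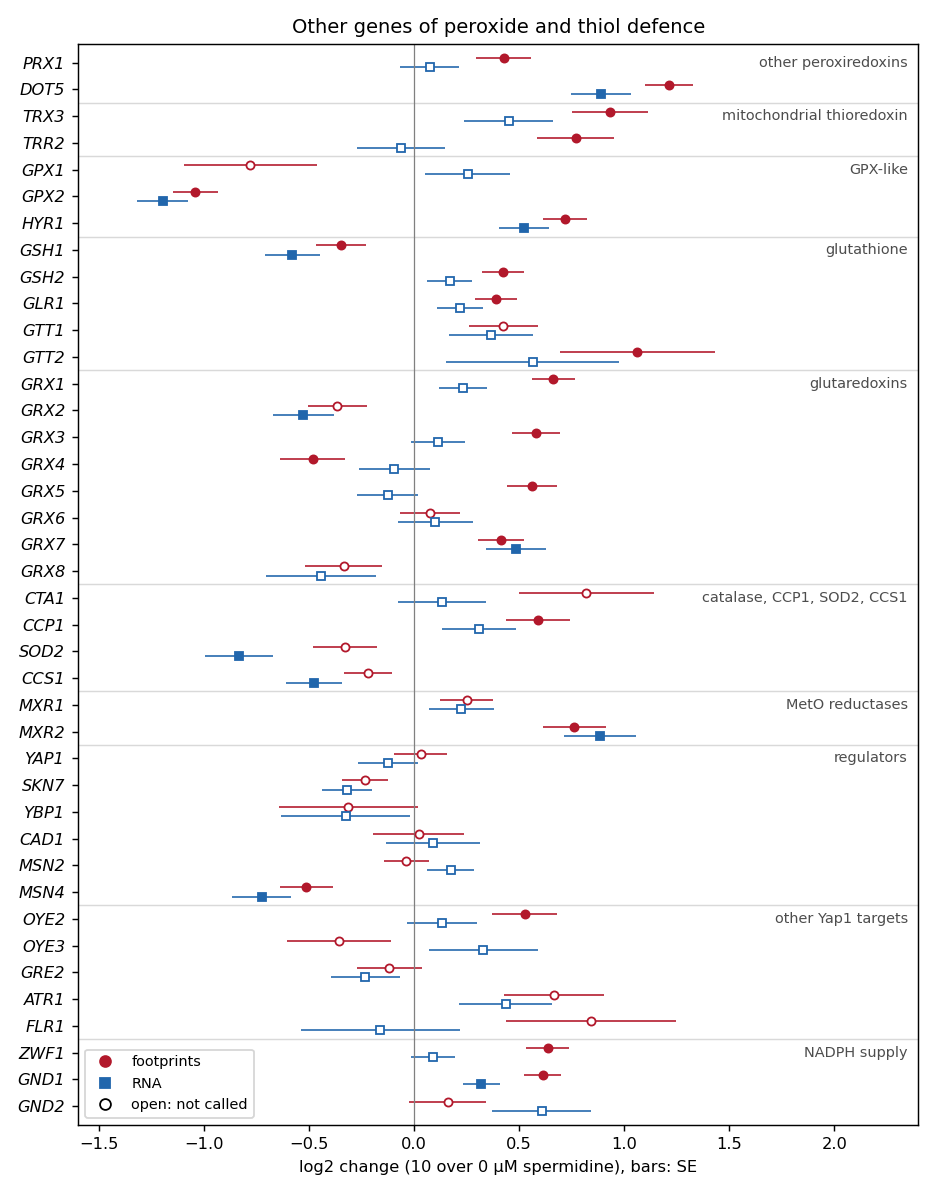
Fitted log2 changes, 10 over 0 µM, in footprints (red circles) and RNA (blue squares) with SE bars for the 40 tested genes of peroxide and thiol defence outside the 10 members, grouped by role; filled symbols were called. Footprint changes run from -1.04 (GPX2) to 1.21 (DOT5), and 17 filled circles lie to the right of 0 against 4 to the left. The genes were listed with earlier results of these data known, so these counts are a description.

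Of the 6 listed regulators 1 was called, beside 38.5% of all genes in footprints and 21.9% in RNA. YAP1 differed by 0.03 in footprints (SE 0.13, edgeR adjusted p = 0.87) and by -0.12 in RNA (SE 0.14, edgeR adjusted p = 0.59). SKN7 differed by -0.23 (SE 0.11, edgeR adjusted p = 0.13) and -0.32 (SE 0.12, edgeR adjusted p = 0.085). MSN4 was the one called, and fell by 0.51 on the log2 scale in footprints (SE 0.12, edgeR adjusted p = 0.01) and by 0.72 in RNA (SE 0.14, edgeR adjusted p = 0.0056). Its footprint call was lost without replicate 1 of either concentration and its RNA call without RNA replicate 2 at 10 µM. The activity of these factors is not measured by their transcript or footprint levels.

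The genes whose 8-library profiles were most like those of TSA2 and CTT1, by Euclidean distance between log2 CPM values centred within each assay, are given as a description. Nearest to TSA2 were YGL039W (distance 0.41), TDH2 (0.689), SER3 (0.74), UGA1 (0.754) and ERG3 (0.781). They had footprint log2 changes of 2.41, 2.19, 2.39, 2.51 and 2.08 in that order. Nearest to CTT1 were the ferroxidase gene FET3 (0.194), PRY2 (0.231), RTN2 (0.279), UPS2 (0.297) and the mitochondrial carrier gene PIC2 (0.312), with footprint log2 changes of -1.21, -1.17, -1.30, -1.40 and -1.14. The reads of TDH2 may be shared with its near-identical paralogs.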

How the data were processed

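Ribosome footprints and total RNA of 8 samples were read from the single deposited table, which holds whole-number read counts per gene made by the authors. R64 and sacCer3 are the builds listed in the submitters' processing notes, and Bowtie 1.1.2 and 1.2.2, cutadapt and edgeR the tools, without their roles. Which region was counted, what became of reads with several matches and whether strand was used is not stated there or in the labels. No member overlaps another gene in the RefSeq R64 gene table, which gave symbols, coordinates and lengths; it matched 5543 of 5545 IDs. A further 3 lines were blank. Every library had a lowest count of 1. No sequences are shown, since no sequence file was at hand.

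The test was edgeR 4.0.16's quasi-likelihood test (R 4.3.3). Filtering used filterByExpr (minimum count 10, minimum total 15), which left 5488 genes. Counts were scaled by the trimmed mean of M values and fitted with 1 coefficient per group and no block (4 residual degrees of freedom). In all, 5 contrasts were tested and adjusted by Benjamini-Hochberg over all tested genes. Standard errors are the log2 change over the root of F. CPM are counts over composition-adjusted totals, and the zero of the footprint to RNA ratio is set by the scaling. Alternatives were DESeq2 1.42.0, limma 3.58.1 (voom), other scalings, no filter, each assay alone, replicate blocks and omission of each library. The fit was tested on simulated data, with 100 genes changed by a log2 of 1 and 100 by 2, evenly in both directions. Only 1 assay was changed at a time. Unchanged genes called numbered 17 in the footprint contrast, 15 in the RNA contrast, and 14 and 4 in the efficiency contrast. Far more genes were called in the real data, so the recovery rates there may differ. At a simulated log2 change of 1, the footprint contrast recovered 88% of changed genes and the RNA contrast 84%. The efficiency contrast recovered 48% when the change was in footprints and 42% when it was in RNA. Changes in efficiency of that size can therefore go uncalled. The members and the lists were chosen with earlier results of these data known. Of the listed genes the text names, per contrast, the 4 called genes with the largest change in each direction, with YAP1 and SKN7; PRX1, GND1, GND2, ZWF1, HSP32, HSP33 and SNO4 were added after their values were seen.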

Additional observations from a re-analysis of the deposited data

How the results depend on the processing

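No called change of a member, or of a gene named from the list of other defence genes, turned direction under the alternatives run. Over the omissions of a single library, the genes called numbered 1392 to 2218 in footprints, 669 to 1080 in RNA and 20 to 151 in efficiency, with 771 and 669 in RNA without RNA replicates 1 and 2 at 10 µM, and 1392 in footprints without footprint replicate 2 at 0 µM. Efficiency calls were 34 and 39 without footprint replicates 1 and 2 at 10 µM, 45 and 64 without those at 0 µM, 49 and 20 without RNA replicates 1 and 2 at 10 µM, and 151 without RNA replicate 2 at 0 µM. Over the same omissions, members called lower in footprints numbered 2 to 4, members called higher in RNA 0 to 2, members called higher in efficiency 0 to 1, and members with a footprint to RNA ratio called lower at 0 µM 1 to 2. Members called lower in footprints were 2 without footprint replicate 2 at 10 µM, and those called higher in RNA were 0 without RNA replicate 1 at 10 µM or RNA replicate 2 at 0 µM. In the list of 40 other genes, those called higher and lower numbered 11 to 17 and 1 to 4 in footprints, 3 to 4 and 3 to 6 in RNA, and 0 to 1 higher in efficiency (ZWF1, without RNA replicate 2 at 0 µM). With each assay fitted alone, 1 member and 3 list genes were called higher in RNA; with DESeq2, 2 list genes were called lower in footprints; with library totals, 1 member (TRX1) had a ratio called lower at 10 µM. The causes were not tested.

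The replicate numbers are not said to pair samples, and the differences between replicates 1 and 2 correlated across genes at 0.0344 to 0.23 between groups. The genes called in efficiency numbered 181 with a replicate block and 165 with a block within each concentration, against 98 with none; with either block no member or list gene was called in efficiency. With the replicate block the genes called numbered 2337 in footprints and 1378 in RNA; it changed no call of a member or named list gene other than that of SOD2 in footprints. Depth limits SRX1 most, at 3 RNA counts per library at 10 µM. The promoter motif search was not run, for want of sequences.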
